A study of Homo sapiens with 8 samples.

Results

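The interaction of Orc6 loss with oxidative damage was described over the accessible regions that had an ATAC-seq peak in all 4 conditions of the study. Peaks on chromosomes 1 to 22 and X were merged across the 4 deposited lists into 129052 regions, and the 80119 with a peak in every list were kept. Each region was given, in each list, the percentile of its best peak by peak signal within that list. The interaction value was (siOrc6 with H2O2 minus siOrc6 untreated) minus (siGl3 with H2O2 minus siGl3 untreated), in percentile points. Regions at 20 points or more are called positive and regions at -20 points or less negative. The measured values themselves thus chose both classes, and no test was made on them.

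All 8 libraries came from U2OS, an established human osteosarcoma cell line, held by a double thymidine block and collected 3 h after release. The 4 conditions were the control siRNA siGl3 untreated, siGl3 with 5 mM H2O2 for 30 min, siOrc6 untreated, and siOrc6 with 5 mM H2O2 for 30 min, each siRNA acting for 72 h. Each condition had 2 libraries, numbered as batches 1 and 2, and 1 deposited peak list whose name carries both numbers. No value per library was used here, so every value below is a single value per condition. Neither a spread between replicates nor an exact test over samples could be given, depth is unknown, and nothing in the labels says whether both libraries of 1 condition are separate cultures.

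ATAC-seq reads open chromatin with a transposase that cuts and tags DNA not covered by nucleosomes. Orc6 belongs to the origin recognition complex (ORC), which marks the sites where replication starts. The study's title links Orc6 to ISWI, a family of remodellers that slide and space nucleosomes with the ATPase SMARCA5 or SMARCA1. H2O2 oxidises bases and breaks DNA strands, and the design asks whether chromatin under that damage looks different when Orc6 is depleted. A value near 0 means that H2O2 moved a region's rank alike under both siRNAs. A negative value means that its rank with both agents was lower than the 2 single differences add up to, and a positive value that it was higher.

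Negative regions held CpG-rich promoters more often than positive ones did, a pattern noticed in the data, so picked promoters with starts in negative and in positive regions are shown first. Each is the 250 bases before the RefSeq start (build GRCh38.p14), read 5′ to 3′ on the gene's strand, with each CG dinucleotide in capitals. ZNF385B (chr2:179861613-179861862, minus strand), RBM38 (chr20:57391146-57391395, plus strand) and PRDX2 (chr19:12801801-12802050, minus strand) lay in negative regions.
ZNF385B: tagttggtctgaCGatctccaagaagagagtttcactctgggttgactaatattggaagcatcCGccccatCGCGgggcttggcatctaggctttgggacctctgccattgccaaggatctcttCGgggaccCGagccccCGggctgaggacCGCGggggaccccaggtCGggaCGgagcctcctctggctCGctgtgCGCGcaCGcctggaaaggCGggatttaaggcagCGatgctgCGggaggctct
RBM38: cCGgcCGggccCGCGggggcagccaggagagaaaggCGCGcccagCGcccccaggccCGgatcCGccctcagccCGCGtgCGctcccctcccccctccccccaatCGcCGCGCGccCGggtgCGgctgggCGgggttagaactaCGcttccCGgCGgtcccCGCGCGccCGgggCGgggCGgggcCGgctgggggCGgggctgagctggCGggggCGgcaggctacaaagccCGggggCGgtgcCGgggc
PRDX2: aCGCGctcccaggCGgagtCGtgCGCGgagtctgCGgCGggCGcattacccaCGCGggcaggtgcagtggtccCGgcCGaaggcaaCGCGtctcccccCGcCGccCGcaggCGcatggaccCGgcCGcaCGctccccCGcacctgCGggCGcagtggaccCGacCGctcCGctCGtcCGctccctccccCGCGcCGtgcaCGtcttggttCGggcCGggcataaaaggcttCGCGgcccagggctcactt
The starts of FGF14 (chr13:102402444-102402693, minus strand) and PCDHA6 (chr5:140827710-140827959, plus strand) lay in positive regions. Both printed stretches reach beyond these regions, which span 102402334 to 102402631 and 140827816 to 140828816. The CG counts below cover whole stretches.
FGF14: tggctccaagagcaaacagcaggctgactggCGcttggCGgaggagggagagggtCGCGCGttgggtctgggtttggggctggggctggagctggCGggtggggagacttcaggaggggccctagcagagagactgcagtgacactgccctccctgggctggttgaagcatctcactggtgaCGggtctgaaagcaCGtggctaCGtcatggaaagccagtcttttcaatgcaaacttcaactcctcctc
PCDHA6: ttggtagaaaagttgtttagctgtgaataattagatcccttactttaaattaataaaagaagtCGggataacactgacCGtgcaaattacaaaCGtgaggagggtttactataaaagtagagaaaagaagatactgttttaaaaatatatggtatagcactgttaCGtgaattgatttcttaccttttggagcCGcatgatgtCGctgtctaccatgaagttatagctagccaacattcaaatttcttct
The stretches shown hold 18 CG dinucleotides for ZNF385B, 35 for RBM38 and 38 for PRDX2. FGF14 has 9 and PCDHA6 has 6.

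The lists held between 97816 and 115292 peaks on these chromosomes. A percentile is a position within a list, and the lists differ in length, so an interaction value describes a shift of position and does not by itself show a change in accessibility. Peak signal grew with peak width (Spearman's rho across peaks of a list between 0.842 and 0.882), so a wider peak ranked higher. When signal per bp was ranked instead, the interaction values correlated with those reported at r = 0.335 across 80119 regions, against 0.943 when all 4 rankings were made among the shared regions alone. Of 56 positive or negative regions and genes named by the rule (2 regions stand there under 2 names), 46 remained past the threshold by summed signal, 33 by −log10 p and 21 by signal per bp, and 37 kept their sign by signal per bp. With only the upper 90% of peaks of each list, 25 of the 56 still had a peak in all 4 lists. Those 25 stayed past the threshold, and the others rest on a peak near the bottom of at least 1 list.

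Interaction values were centred on 0 and symmetric. Their median was 0.062 points and their SD across regions 10.2 points, with 90% of regions between -17.0 and 17.2. There were 2788 positive regions (3.48% of all shared regions) and 2721 negative ones (3.40%). The single differences spread as widely: the H2O2 difference had an SD of 11.8 points in siGl3 and 11.05 in siOrc6, and the siOrc6 difference 11.3 without and 10.9 with H2O2. Without values per library, the spread of the interaction values could not be set against a spread between replicates.

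The H2O2 differences under the 2 siRNAs went largely together. Across 80119 regions, Pearson's r between them was 0.605 and Spearman's rho 0.607. They come from different lists but share the cell line, the batches and the regions themselves. A position at least 10 points lower with H2O2 under both siRNAs was seen at 10864 regions (13.6%), and one at least 10 points higher under both at 2796 (3.49%). Opposite differences of that size were scarcer, with 446 regions (0.557%) higher in siGl3 and lower in siOrc6 and 403 (0.503%) the other way. Shared regions as a whole ranked lower in the H2O2 lists, which were shorter than the untreated list of the same siRNA. Their median H2O2 difference was -2.66 points in siGl3 and -2.53 in siOrc6. All these counts include that shift and do not by themselves show a loss of accessibility.

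**Figure D1:**
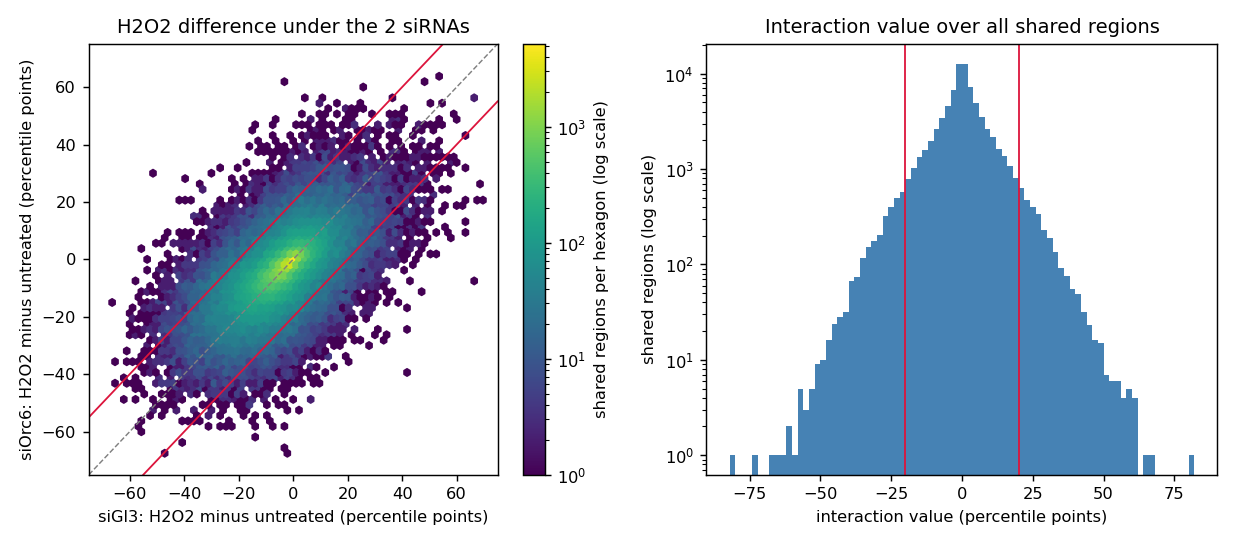
Left, the H2O2 difference in siOrc6 (y, percentile points) against that in siGl3 (x) over 80119 shared regions, coloured by regions per hexagon on a log scale, with equality dashed and interaction values of 20 and -20 as red lines. Right, the number of regions (log scale) by interaction value; both tails reach beyond 80 points and hold 2788 and 2721 regions past the red lines.

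The size of the interaction value went with the strength of the region. Regions with a mean percentile between 10 and 20 had an SD of 16.04 points, those between 50 and 60 one of 10.2, and those between 90 and 100 one of 1.91. Of regions between 10 and 20, 9.79% were positive and 10.9% negative. Of the 10105 strongest, none was positive and 2 were negative. The percentile scale ends at 100, which leaves the strongest regions less room. The median region in the positive class had a mean percentile of 34.4 and that in the negative class 33.4, against 60.4 for all shared regions. Both classes were narrower than the median shared region of 708 bp, at 524 bp and 539 bp. At mean percentiles of 50 or more this did not hold for negative regions. The medians there were 880 bp in positive and 1091.5 bp in negative regions, against 934 bp in all.

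**Figure D2:**
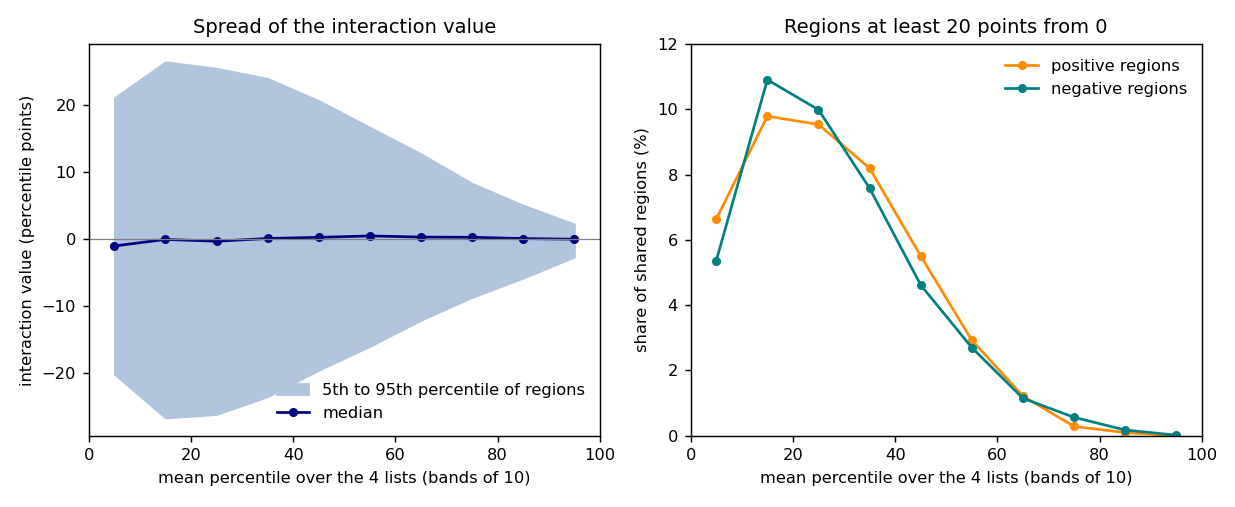
Left, the median interaction value (line) and its 5th to 95th percentile over regions (band), by bands of the mean percentile over the 4 lists. Right, the share of regions that were positive or negative in the same bands; both peak between 10 and 20, at 9.79% and 10.9%.

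In positive regions the median rank stood lower with H2O2 in siGl3 and higher in siOrc6. The median percentile of the class was 47.5 in untreated siGl3 and 23.5 in siGl3 with H2O2. In siOrc6 it was 27.5 untreated and 36.9 with H2O2. Negative regions mirrored this, at 27.4 and 39.4 in siGl3 and 42.2 and 22.1 in siOrc6. These 4 medians describe what the rule selected. Opposite signs of the H2O2 difference under the 2 siRNAs were found in 51.9% of positive and 56.9% of negative regions, against 23.2% of all shared regions, which the rule favours too.

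The highest interaction value, 81.3 points, was at chromosome 13, 44817097 to 44817657 (hg38 throughout), in no protein-coding gene and 122 kb from NUFIP1, a factor in the assembly of small nucleolar RNPs. Its percentile was 58.2 in untreated siGl3, 7.15 in siGl3 with H2O2, 2.53 in untreated siOrc6 and 32.8 in siOrc6 with H2O2. Either agent alone thus went with a low rank, and both together with one between these and the control. The peak signals behind these ranks were 1018, 243, 215 and 521, those of the single conditions close to the lowest signal in any list.

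The second, 66.7 points, overlapped the end of higher coordinate of NOP56, a core protein of box C/D small nucleolar RNPs (chromosome 20, 2658374 to 2659297). It ranked at 49.9 in siGl3, 10.2 in siGl3 with H2O2, 27.4 in siOrc6 and 54.5 in siOrc6 with H2O2. Next came another shape, with 64.3 points: a region 27.3 kb from VWA5B1 (chromosome 1, 20262705 to 20263532) stood at 89.5, 86.2 and 69.4 in siGl3, siGl3 with H2O2 and siOrc6 with H2O2, and at 8.46 in untreated siOrc6. In that list its peak was 277 bp wide, against 761 to 828 bp in the others. The same held within SCRT1, a neuronal transcriptional repressor, on chromosome 8 (61.7 points), where untreated siOrc6 was at 21.6 and the other lists between 60.2 and 74.0, and within C1QTNF3 on chromosome 5 (59.2 points), at 10.2 against 52.4 to 67.2. By −log10 p these regions of SCRT1 and C1QTNF3 stood at 17.9 and 3.92, by signal per bp they turned to -33.6 and -14.1, and C1QTNF3 stood at 17.04 by summed signal.

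The other 7 of the 12 highest lay between 58.1 and 61.5 points. LTBP2, a matrix protein of the latent TGF-beta binding family, held a region within the gene (chromosome 14, 74502021 to 74502810) at 45.5, 15.5, 2.41 and 33.5 in the order siGl3, siGl3 with H2O2, siOrc6 and siOrc6 with H2O2. Regions within CCDC85A and TPD52L2, and others nearest to the chemokine receptor gene CXCR4 (282 kb), TEX26 (68.5 kb) and NBPF4 (4.3 kb), were likewise high in untreated siGl3 and low in both single conditions. By signal per bp the regions at LTBP2, TEX26 and NBPF4 turned to -6.17, -6.28 and -18.2, and that at NBPF4 stood at 19.4 by summed signal and 9.32 by −log10 p. The region 1.5 kb from PRODH2, which encodes hydroxyproline dehydrogenase, stood apart from these through siGl3 alone, at 62.0 untreated and 6.46 with H2O2, against 25.4 and 28.0 in siOrc6. Over the 12 regions, the median percentile was 56.5, 15.7, 12.4 and 37.7 in the same order, and 2 of 12 were at a gene end.

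The lowest value, -80.7 points, was at chromosome 22, 25356472 to 25359122, 125 kb from CRYBB2, a lens crystallin gene. It ranked at 13.7 in siGl3, 55.9 in siGl3 with H2O2, 40.8 in siOrc6 and 2.27 in siOrc6 with H2O2. The region held 2 peaks in 3 of the 4 lists and 1 in untreated siOrc6, and only the best peak was ranked. By −log10 p its value was -3.77 points and by signal per bp 14.7. Within ADGRB1, an adhesion receptor gene on chromosome 8 (-72.4 points), siGl3 with H2O2 stood at 68.5 and the other lists between 2.82 and 10.8. Another region of chromosome 8 (-57.4 points) had the same shape, at 57.5 in siGl3 with H2O2 and between 3.52 and 14.3 elsewhere, but turned to 9.19 by −log10 p and 3.86 by signal per bp. TOX, an HMG-box factor (chromosome 8, -66.1 points), had a gene-end region at 6.50, 47.9, 44.2 and 19.5. The ADGRB1 region stood at -6.96 by signal per bp and the TOX region at -8.68.

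A region 0.6 kb beyond the annotated end of CCND1, the cyclin D1 gene of G1 to S progression (chromosome 11, 69655028 to 69656560), had a value of -60.8 points. Its percentile was 4.19 in siGl3, 38.7 in siGl3 with H2O2, 67.0 in siOrc6 and 40.8 in siOrc6 with H2O2, and the authors' deposited table lists it as higher in siOrc6 without H2O2. By −log10 p its value was -14.9 and by signal per bp -2.57, neither past the threshold. Regions within KCNJ15, a potassium channel gene (-58.0), and DCAKD (-56.3), and 1 located 14.1 kb from IRF2BP2, a transcriptional corepressor (-58.0), and another 11.7 kb from C1QTNF8 (-60.9) were likewise lowest in untreated siGl3, with percentiles between 1.81 and 8.84. The C1QTNF8 region stood at -12.4 by signal per bp.

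In 3 of the 12 lowest, siOrc6 stood far lower with H2O2 than without, while siGl3 differed by 7.39 points or less. A region of 3765 bp in a gene-poor stretch of chromosome 18 (39799621 to 39803385), 2025 kb from the nearest protein-coding gene, ranked at 98.5, 95.1, 90.5 and 24.4, a value of -62.7 points. In siOrc6 with H2O2 its best peak was 260 bp wide, against 2019 to 3717 bp elsewhere, and the authors' deposited table lists it as lower in siOrc6 with H2O2. By −log10 p its value was -16.9. The region 4.1 kb from ZNFX1, an antiviral helicase gene, stood at 43.0, 40.6, 82.8 and 15.9 (-64.4 points), but its value turned to 6.30 by −log10 p and 10.8 by signal per bp. That within CCDC60 stood at 20.2, 27.6, 55.6 and 6.56 (-56.4 points). Over the 12 lowest regions, median percentiles were 8.51, 45.0, 52.2 and 17.7.

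**Figure D3:**
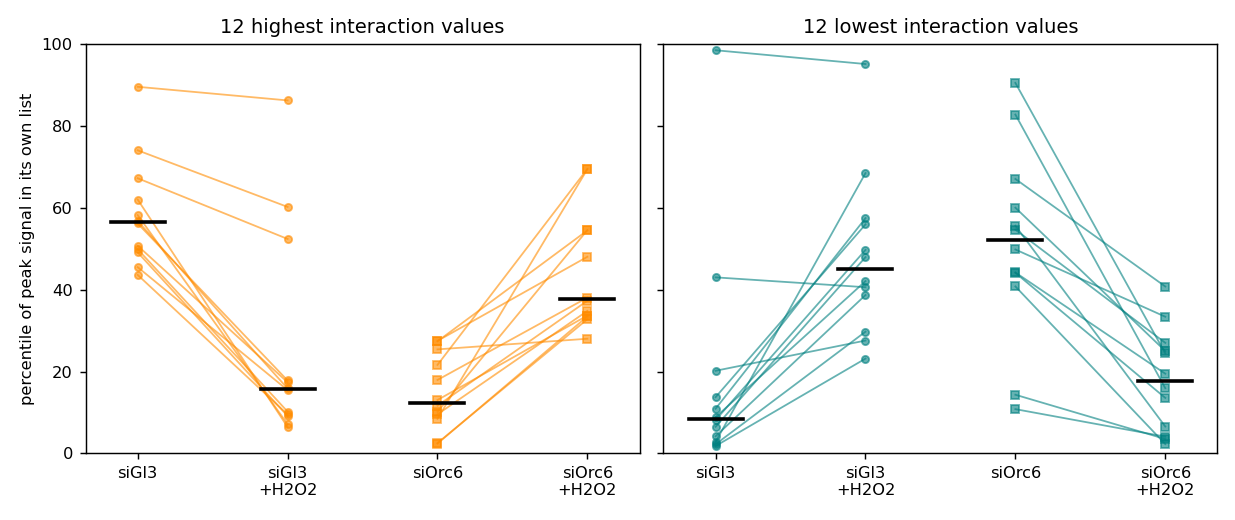
Percentile of peak signal (y) in each condition (x) for the 12 regions with the highest (left) and the 12 with the lowest (right) interaction values; lines join untreated and H2O2 under 1 siRNA, and black bars are medians. The medians run 56.5, 15.7, 12.4 and 37.7 on the left and 8.51, 45.0, 52.2 and 17.7 on the right.

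Regions nearest the thresholds show how the classes end. The smallest positive value, 20.008 points, was 23.5 kb from CPT2 (chromosome 1, 53172766 to 53173296), at 56.6, 50.2, 16.4 and 30.0. Just outside, a region on chromosome 14 (84969531 to 84969831) had a value of 19.998, at 46.7, 45.3, 4.63 and 23.2. The smallest negative value belonged to a gene-end region of PITPNM2 (chromosome 12, 123150930 to 123151911), at 12.5, 53.3, 37.5 and 58.3, and the nearest outside lay in CNNM1, at 38.1, 41.2, 39.3 and 22.3.

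In part of both classes a single list stood apart. A list was said to stand apart where the other 3 lay within 10 points of each other and it lay at least 20 points from their median, a rule chosen after the data were seen. This held for 654 positive (23.5%) and 666 negative regions (24.5%), against 2487 of all shared regions (3.10%). The stand-apart rule favours large interaction values by construction, though not always ones past 20 points, so these counts describe the selected regions only. Among positive regions, siGl3 with H2O2 stood low in 295, untreated siGl3 high in 182, untreated siOrc6 low in 157, and siOrc6 with H2O2 high in only 20. Among negative regions, siOrc6 with H2O2 stood low in 258, untreated siGl3 low in 213, untreated siOrc6 high in 136 and siGl3 with H2O2 high in 59. Over all shared regions the counts in the same orders were 612, 334, 308 and 38, and 484, 350, 261 and 100. The scarcity of siOrc6 with H2O2 high above 3 like lists was thus not particular to positive regions.

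Peaks that were split in 1 list and whole in another took part in both classes. The number of peaks differed between lists in 13.2% of positive and 16.5% of negative regions, against 9.31% of all. At mean percentiles of 50 or more these shares were 44.7% and 54.8%, against 12.7%. Several peaks were found there in untreated siGl3 for 44.5% of negative regions and in siGl3 with H2O2 for 32.4% of positive ones. Over the 72512 regions with exactly 1 peak in each list, 2418 were positive and 2270 negative, and when the signals of all peaks of a region were summed, 1762 and 1852 were.

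The authors' deposited lists of regions higher or lower in siOrc6 were set beside the 2 classes; they come from the same libraries and add no independent evidence. Of positive regions, 12.5% overlapped one listed as lower in siOrc6 without H2O2 (2.78% of all shared regions) and 3.80% one listed as higher with H2O2 (0.695%). Of negative regions, 15.2% overlapped one listed as higher without H2O2 (6.58%) and 1.21% one listed as lower with H2O2 (0.429%). Seen from the lists, the 2224 shared regions lower without H2O2 had a median interaction value of 6.38 points, and their median percentile in siOrc6 was 39.3 untreated and 42.6 with H2O2. The 5274 regions higher without H2O2 had a median of -2.32 points. The 557 regions higher with H2O2 had one of 9.18, with siGl3 at 61.8 untreated and 43.2 with H2O2, and the 344 lower with H2O2 one of -0.996.

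Gene ends (regions no more than 1 kb from the annotated start or end of a protein-coding gene) were fewer in both classes than among all shared regions, and more frequent in negative than in positive regions. Of positive regions 218 (7.82%, Wilson 95% interval 6.88% to 8.87%) lay there, and of negative regions 384 (14.1%, 12.9% to 15.5%), against 14013 (17.5%) of all. For negative regions the lower share depended on the ranking. It was 19.4%, above that of all, when ranked among the shared regions alone, and 17.3% by log2 signal. Since gene ends are mostly strong regions, the shares were also taken within bands of the mean percentile. Below 50, 7.18% of positive and 9.49% of negative regions were at gene ends, against 6.55% of all.

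From 50 upward, negative regions stood above all regions of like strength by more than the counting intervals. Between 50 and 60, 28.5% of negative regions were at gene ends (75 of 263, interval 23.4% to 34.3%), against 9.47% of positive regions (27 of 285, 6.59% to 13.4%) and 8.72% of all. Between 60 and 70 the shares were 41.4%, 14.6% and 11.01%, and from 70 upward 59.7% (46 of 77), 12.8% (5 of 39) and 33.3%. The intervals of positive regions held the share of all regions in the first and middle of these bands and lay below it in the last. That last band mixes strengths: no positive region lay between 90 and 100, where 54.3% of all regions were at gene ends. Between 70 and 80, 2 of 29 positive regions were at gene ends, against 16.6% of all. Between 80 and 90, 3 of 10 were, against 28.9%. In both of these narrower bands the interval of positive regions held the share of all. The intervals cover counting error only and treat regions as independent. The split at 50 was chosen after the data were seen.

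**Figure D4:**
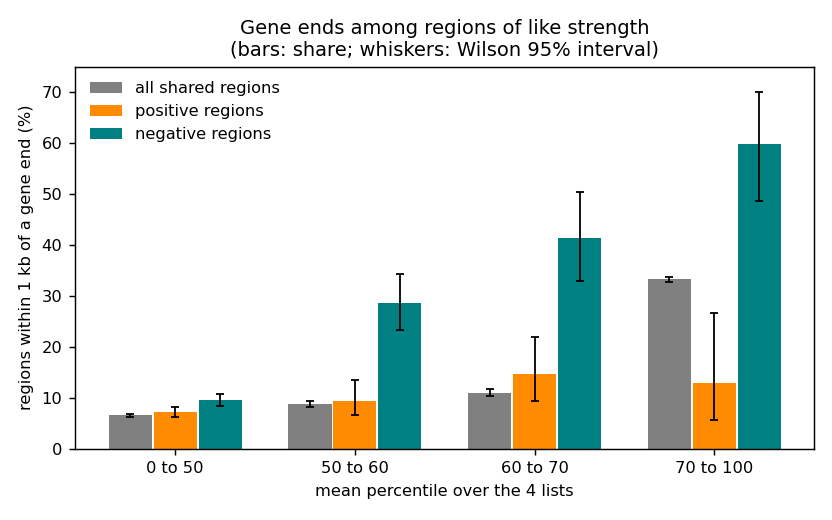
Share of regions within 1 kb of a gene end (y, bars from 0, whiskers Wilson 95% intervals) by mean percentile over the 4 lists (x), for all shared, positive and negative regions. From 50 upward the negative bars (28.5%, 41.4% and 59.7%) stand above those of all regions (8.72%, 11.01% and 33.3%).

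At the 169 negative gene-end regions with a mean percentile of 50 or more, untreated siGl3 was the low list. Its median percentile was 44.1, against 72.6 in siGl3 with H2O2, 66.3 in siOrc6 and 70.2 in siOrc6 with H2O2. Untreated siGl3 stood low alone at 61 of these regions, siOrc6 with H2O2 at 5, and untreated siOrc6 stood high alone at 1. Over all gene-end regions of any strength these counts were 142, 25 and 22. H2O2 and siOrc6 each went with a higher rank there, and both together ranked close to either alone. The rule chose these regions by the same 4 percentiles, so their medians and H2O2 differences describe the selected regions only. The median H2O2 difference was 29.8 points in siGl3 and 3.58 in siOrc6. The authors' deposited table listed 32.5% of them as higher in siOrc6 without H2O2, against 8.20% of all gene-end regions. In untreated siGl3, 53.3% of these regions held several peaks, and in the other lists 14.8% to 29.0%. Among regions with 1 peak in each list, 33.2% of negative regions at 50 or more were still at gene ends, against 21.4% of all. By signal per bp the excess was not seen, at 20.1% against 24.02%.

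Promoters were then taken by base composition, since a RefSeq sequence of 300 bases (250 before and 50 after the start) was at hand for 22132 starts of protein-coding genes. At least 1 such start lay in 9899 shared regions, of which 65 were positive (0.657%) and 214 negative (2.16%). CpG-rich promoters are the common type of housekeeping and developmental genes, and most are unmethylated and open. The median number of CG dinucleotides per 300 bases was 8 in positive, 31 in negative and 26.5 in all promoter regions, and the median GC content 60.3%, 72.3% and 66.0%. These groups differ in strength, with median mean percentiles of 39.8, 53.3 and 89.4. Below 50 the median CG counts were 8, 23 and 16 in the same order, and between 50 and 80 they were 20, 35 and 24.

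The 9899 promoter regions were cut into quintiles by their CG count, a division chosen after the data were seen. In the poorest quintile (up to 17) 2.12% were positive and 2.27% negative. In the richest (above 36) 0.372% were positive (interval 0.180% to 0.767%) and 4.47% negative (3.62% to 5.50%). These shares are over all strengths. Between mean percentiles of 50 and 80, 1.16% of the poorest (0.590% to 2.28%) and 0.432% of the richest (0.119% to 1.56%) were positive, with overlapping intervals. There 1.74% of the poorest (1.00% to 3.02%) and 11.4% of the richest (8.86% to 14.7%) were negative. The median interaction value was -0.129 points in the poorest and -1.39 in the richest quintile over all strengths. At mean percentiles between 50 and 80 it ran -0.784, -2.38, -3.40, -3.86 and -6.12 from the poorest to the richest quintile. Below 50 the poorest stood at -0.795 and the richest at -9.79, with 312 and 100 regions, and the quintile before the richest at -10.4. Above 80 they stood at -0.025 and -0.785.

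The lists parted along this scale. At mean percentiles between 50 and 80, the poorest quintile had medians of 68.1 in siGl3, 68.7 in siGl3 with H2O2, 69.8 in siOrc6 and 69.8 in siOrc6 with H2O2. The richest had 61.7, 76.3, 68.5 and 76.6. The H2O2 difference was thus 14.7 points in siGl3 and 7.69 in siOrc6 at the richest promoters, and 0.355 and -0.147 at the poorest. The siOrc6 difference at the richest was 6.78 points without H2O2 and 0.117 with it. The median GC content of these quintiles was 77.8% and 54.0%. Base composition moved with the list as well as with the class, and its part in the result was not tested.

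**Figure D5:**
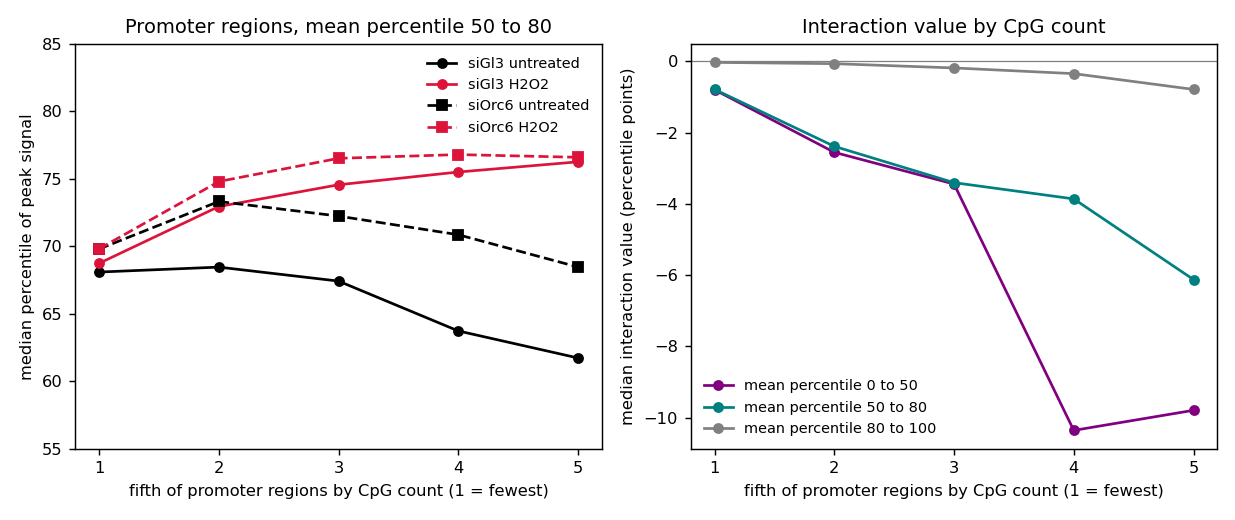
Left, median percentile of peak signal (y, axis from 55 to 85) in each of the 4 lists by quintile of CG count (x) for promoter regions with a mean percentile between 50 and 80. Right, the median interaction value by quintile in 3 bands of the mean percentile; in the richest quintile it was -9.79, -6.12 and -0.785 points.

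Short motifs were counted in the same 300 bases, on both strands, as a description. GGGCGG, the core of the GC box, occurred in 78.5% of negative, 46.2% of positive and 74.2% of all promoter regions (56.3% of all 22132 promoter sequences). TATAAA occurred in 7.94%, 15.4% and 4.69% (9.46%). TGANTCA, the AP-1 site, occurred in 12 of 214 negative, 8 of 65 positive and 5.50% of all promoter regions (6.15%). TGACNNNGC, the core of the antioxidant response element, occurred in 12.6%, 13.8% and 15.2% (13.8%), and CCAAT in 29.4%, 24.6% and 35.1% (34.6%). Matches to different motifs may overlap, and a match is not a bound site. The sequences printed above are picked examples: ZNF385B, RBM38 and PRDX2 hold 22, 47 and 46 CG dinucleotides in 300 bases, and FGF14 and PCDHA6 11 and 8. ZNF385B lies below the median of all promoter regions (26.5). The promoters of UNCX and C3orf80, also in positive regions and not printed, hold 20 and 29.

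By gene, 13496 protein-coding genes had a shared region at an end, and each was given the value of the strongest such region. Of these genes 90 were positive (0.667%) and 258 negative (1.91%), with a median over all genes of -0.365 points. Excluding a predicted locus that shares the CCND1 region, the lowest values were those of ZNF385B (-52.5), SNAP91 (-51.7), TTLL7 (-48.6), RBM38 (-48.5), ACSL4 (-48.1) and PLEKHA2 (-48.1).

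At the start of SNAP91, a clathrin assembly protein of synapses (chromosome 6, 83708420 to 83709603), untreated siGl3 ranked at 7.09 and the other lists at 71.3 (siGl3 with H2O2), 53.5 (siOrc6) and 66.0 (siOrc6 with H2O2). ZNF385B, a zinc finger gene, stood at 9.62, 72.0, 60.3 and 70.2 in the same order. ACSL4, which activates polyunsaturated fatty acids and is known for its role in ferroptosis, stood at 8.61, 65.5, 49.0 and 57.7. All 3 had untreated siGl3 alone at the bottom of its list and the other lists well above it. PLEKHA2 (4.61, 74.3, 52.97 and 74.6), MSI1, an RNA-binding protein of stem cells (11.02, 78.2, 59.1 and 79.4), and TJP3, a tight junction protein (2.59, 64.9, 30.4 and 51.2), had the same order of siGl3 against the rest. By signal per bp SNAP91 and ACSL4 stood at -14.3 and -17.7, and PLEKHA2, MSI1 and TJP3 turned to 4.15, 35.7 and 1.25. By −log10 p MSI1 stood at -1.45 and TJP3 at -10.2.

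Other genes among the 12 lowest stood lower in siOrc6 with H2O2 than in untreated siOrc6. RBM38, an RNA-binding protein and p53 target, stood at 54.3, 89.7, 72.4 and 59.3, with 3 peaks in untreated siGl3 and in siOrc6 with H2O2, 2 in siOrc6 and 1 in siGl3 with H2O2. TTLL7, a tubulin polyglutamylase, stood at 4.15, 22.1, 48.8 and 18.2. TPSD1, a mast cell tryptase gene, stood at 38.2, 38.0, 43.4 and 1.71 (-41.5), so that only siOrc6 with H2O2 was low. ZDHHC11 (-45.4) and DRICH1 (-43.6) were lowest in that list too. By −log10 p RBM38, TPSD1 and ZDHHC11 stood at -13.8, -17.3 and -18.97, and by summed signal TTLL7 at -3.16 and TPSD1 at -19.9. By signal per bp RBM38, TTLL7 and TPSD1 turned to 32.2, 20.4 and 2.53, and ZDHHC11 stood at -18.3.

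Genes at the positive end were mostly low in siGl3 with H2O2. GALR3, a galanin receptor (44.8 points), stood at 50.8 in siGl3, 0.754 in siGl3 with H2O2, 53.2 in siOrc6 and 47.9 in siOrc6 with H2O2. PCDHA6, a clustered protocadherin (40.1 points), stood at 38.8, 1.34, 47.3 and 49.9, and ZNF429 (39.2) at 52.97, 17.1, 56.6 and 59.9. In these genes 1 list, siGl3 with H2O2, lay far below the rest. Its peak signal was 204 at GALR3, 208 at PCDHA6 and 318 at ZNF429, and the lowest signal in that list was 200. ZNF516 (41.5), CCDC188 (44.3), ZNF574 (40.9) and FGF14 (40.4), a fibroblast growth factor homologue of neurons, had their lowest percentile there as well. GALR3, PCDHA6, ZNF516, CCDC188 and ZNF574 had no peak in the upper 90% of that list. NR0B1, an orphan nuclear receptor (39.6), stood at 62.0, 36.8, 60.4 and 74.8, with 2 peaks in siGl3 with H2O2 and in untreated siOrc6. By −log10 p and by signal per bp, GALR3 stood at 6.02 and 2.32, CCDC188 at 6.64 and 6.50, ZNF429 at 9.96 and 1.497, and NR0B1 at 16.9 and 5.77. NR0B1 stood at 6.96 and ZNF574 at 18.8 by summed signal, and ZNF574 at 19.1 when ranked among shared regions alone.

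UNCX, a homeobox gene (chromosome 7, 1231169 to 1233241), had a value of 40.1 points through untreated siOrc6 alone, at 38.1 with 2 peaks, against 76.4, 79.0 and 80.7 with 1 elsewhere. C3orf80 (39.8) stood lowest in that list too, at 8.94 against 37.5, 49.5 and 60.7. CIART, a circadian repressor (39.1), and JHY (40.8) were lowest in untreated siOrc6 as well, at 16.1 and 24.3. CIART turned to -48.05 by signal per bp, and C3orf80 stood at 12.6.

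Gene lists of pathways relevant to the treatment lay close to 0. Of 511 listed genes, 445 had a shared gene-end region, 2 of which were positive and 6 negative, with a median of -0.326 points. Over all 13496 genes 0.667% were positive and 1.91% negative, so the listed genes were called no more often than genes at large. The 2 sets differ in strength, with a median mean percentile of 93.8 for listed genes and 89.7 for all genes. Of 10105 shared regions between 90 and 100, only 2 were called, so these shares say little about the pathways. In the TGF-beta and collagen matrix list, 2 of 25 were positive, and 2 that share a single region were negative. COL1A2, a chain of type I collagen (chromosome 7, 94395365 to 94395755), stood at 34.0 in siGl3, 12.8 in siGl3 with H2O2, 17.6 in siOrc6 and 27.1 in siOrc6 with H2O2, a value of 30.7 points. TGFBI, a TGF-beta induced matrix protein, had a region just beyond the gene's end at 57.8, 31.3, 40.7 and 35.0 (20.8 points). The basement membrane collagens COL4A1 and COL4A2 share 1 start region (chromosome 13, 110306324 to 110308250), at 43.4, 80.9, 80.2 and 82.7 (-35.1 points), with 2 peaks in untreated siGl3 and 1 elsewhere. By −log10 p that region stood at -10.5 and by signal per bp at 13.4, TGFBI stood at 6.09 by signal per bp, and COL1A2 at 19.99 by summed signal.

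Among antioxidant genes 1 of 29 was negative and none positive, against 1.91% and 0.667% of all genes. PRDX2, a peroxiredoxin that reduces H2O2, stood at 53.6, 78.3, 79.1 and 82.7 (-21.1 points, -18.2 by summed signal and -15.3 by signal per bp). MAFG, a partner of NRF2, had a value of 11.2. The median of the list was -0.194 points. Among other chromatin remodellers 2 of 22 were negative (1.91% of all genes), HELLS, an SNF2-like remodeller needed for DNA methylation (15.99, 35.9, 52.5 and 47.6, -24.8 points), and CHD7 (26.7, 69.1, 50.0 and 67.0, -25.4 points). Both lost the call by −log10 p (-9.54 and -10.7) and turned by signal per bp (4.79 and 12.5), and HELLS stood at -18.5 when ranked among shared regions alone and at -18.2 by summed signal. Among double-strand break and checkpoint genes 1 of 22 was negative, MRE11, the nuclease that trims broken ends (16.2, 59.98, 43.8 and 67.1, -20.5 points). It stood at -12.4 when ranked among shared regions alone, -11.97 by summed signal, -19.5 by −log10 p and -4.48 by signal per bp. In all 6 negative genes of the lists untreated siGl3 held the lowest percentile.

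No gene was positive or negative among the 24 immediate-early and AP-1 genes (median -0.208 points), the 29 replication fork genes (-0.872), the 22 licensing and firing genes (-0.384), the 31 replication-dependent histone genes (-1.39) or the 21 base excision and single-strand break repair genes (-0.042). The same held for 8 mismatch repair genes (-0.320), 17 heat shock genes (-0.412), 22 p53 targets (-0.338), 22 E2F and G1/S genes (-0.155), 23 G2 and mitosis genes (0.009) and 48 ribosomal protein genes (-0.189). It held too for 18 YAP and TEAD targets (-0.213), 14 osteoblast genes (-0.737), 21 interferon and inflammation genes (-1.14) and 15 markers of blood, epithelium and neurons (1.53). The lists' median mean percentiles were between 81.5 and 98.3. Of all 10158 shared regions between 80 and 90, 10 were positive and 18 negative.

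Individual listed genes between 10 and 20 points from 0 included KRT5, an epithelial keratin (-19.7), ARID1B, a BAF subunit (-19.3), CHAF1B, a subunit of the chromatin assembly factor at forks (-14.9), KLF4 (-18.0), EGR2 (-17.1), KLF2 (-11.8) and the histone gene H4C3 (-11.1). On the other side were CCNE2, cyclin E2 (16.3), RPL19 (15.9), COL6A2 (13.3), LTBP1 (11.6) and CECR2, an ISWI partner (11.4). These genes were chosen after their values were seen.

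The genes of the targeted complex and of the remodeller in the study's title had strong gene-end regions, with mean percentiles between 78.5 (ORC5) and 99.4 (ORC6), where the measure leaves little room. Of all shared regions between 90 and 100, 90% had interaction values between -2.67 and 2.26 points. The start region of ORC6 ranked at 99.6, 99.4, 99.3 and 99.3, a value of 0.141 points; since siRNA targets the transcript, a peak at the gene gives no measure of depletion. The other subunits ORC5 (1.203), ORC4 (-0.275), ORC3 (0.343) and ORC2 (-0.253) stood within 1.203 points of 0. SMARCA5, the main ISWI ATPase, had a value of -1.56 points and its partner BAZ1B one of -0.244. BAZ1A, another partner, stood at 88.0 in untreated siGl3 with 2 peaks, and at 96.7, 95.9 and 96.3 elsewhere with 1, a value of -8.27 points, outside that range. BPTF, the large subunit of NURF, stood at 83.1, 93.4, 86.6 and 92.9 (-4.02 points). ORC1 and SMARCA1 had no region with a peak in all 4 lists at a gene end.

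Interaction values were spread over all chromosomes and showed almost no likeness between neighbours. Between 2.73% (chromosome 15) and 4.52% (X) of a chromosome's shared regions were positive, and between 2.70% (19) and 4.14% (7) negative. Over 22938 pairs of adjacent regions less than 5 kb apart, r between their interaction values was 0.021. Over the same pairs r was 0.126 and 0.134 for the H2O2 differences and 0.135 and 0.157 for the siOrc6 differences. Neighbours share lists and may share copy number, so these correlations are a description.

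In bins of 1 Mb with at least 20 shared regions, the mean value had an SD of 1.80 points over 1635 bins. The highest means were 7.37 at chromosome 8, 74000001 to 75000000 (4 positive of 20 regions, none negative), 7.31 at chromosome 2, 18000001 to 19000000 (4 of 25) and 6.03 at chromosome 10, 16000001 to 17000000 (1 of 22). At the ends of genes in these bins the values lay between -1.16 (PTER) and 2.44 (CRISPLD1), with RDH14, a retinol dehydrogenase, at 0.350. The lowest means were -6.12 at chromosome 12, 98000001 to 99000000 (3 negative of 20), -5.64 at chromosome 2, 119000001 to 120000000 (6 of 55) and -5.62 at chromosome 13, 99000001 to 100000000 (3 of 22). The last holds CLYBL, a mitochondrial lyase, with a gene-end value of -24.2, while TMPO, STEAP3 and TM9SF2 in these bins stood at -1.42, -3.65 and -6.36.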

How the data were processed

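ATAC-seq was measured in 8 libraries of U2OS cells in 4 conditions of 2. Tools the authors used, per the submitters' processing notes, were Genrich, edgeR, deepTools, Picard, SAMtools, Bowtie2 and bcl2fastq 2.20, with build hg38; their roles, thresholds, shifts for the transposase and treatment of duplicates are not given in the sources used here. The authors deposited 1 peak list per condition with a display score (not ranked), a peak signal (ranked), a −log10 p-value, a q-value (not used) and a summit offset. Scaling between lists is not given, so values were used as ranks within a list. The authors' changed regions, in 4 more files, come as positions and serial numbers with no fold.

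Peaks that overlapped or touched were merged, and the percentile was the average rank over the number of peaks in the list, times 100. Peaks elsewhere (147 to 168 in a list) were dropped. Gene positions (19974 protein-coding genes) and promoter sequences came from RefSeq tables of GRCh38.p14, matched by symbol or gene ID. Intervals are Wilson 95% intervals. No test was made, since each condition had 1 list; merging and ranking were tested on simulated lists with known interactions. Scripts used matplotlib 3.10.9, pandas 2.3.3, numpy 2.4.6 and scipy 1.17.1 under Python 3.11.15.

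Named were the ORC and ISWI genes; the 12 regions and the 12 genes at each end; up to 3 called members per list and direction; and 3 bins at each end. Some items so named are not reported here. Regions, genes and lists were chosen with earlier results of these data known. Names beyond the rule were chosen after their values were seen.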

Additional observations from a re-analysis of the deposited data

How the results depend on the processing

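Ranking among the shared regions alone gave 2153 positive and 2357 negative regions, 1616 and 1718 of them called before, and gene-end shares of 10.4% and 19.4% (positive, then negative, throughout). Summed signal gave 1762 positive regions and shares of 8.97% and 16.3%. By −log10 p the negative share was 12.02%. Signal per bp gave 10031 and 9890 regions and shares of 9.76% and 12.8%. With 1 peak per list the shares were 6.62% and 11.1%, with the upper 90% of peaks the negative share was 16.7%, and by log2 signal, where the number called is fixed, 10.0% and 17.3%. A threshold of 10 points gave 9801 and 9422 regions, and 1 of 30 points 719 and 726, with shares of 10.6% and 15.6%. With a 3 kb window the shares were 15.9% and 21.2%, and with annotated starts only 5.17% and 10.7%. In each of these settings the negative share was above the positive one. It lay above the share of all regions (17.5%) when ranked among the shared regions alone, and close to it by log2 signal.

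Of 2788 positive and 2721 negative regions, 96.1% and 95.6% kept their sign by −log10 p, and 77.3% and 73.3% by signal per bp. In summed signal and log2 signal these were at least 99.04%. The median in the richest quintile of promoters at mean percentiles between 50 and 80 was between -8.74 and -5.46 points in the settings on the percentile scale, signal per bp included (-5.84), and that in the poorest between -1.74 and -0.703. Shares called over all strengths lay proportionally closer by signal per bp. There 11.4% of the richest and 9.48% of the poorest quintile were negative, against 4.47% and 2.27% by peak signal. Positive were 5.11% and 7.31%, against 0.372% and 2.12%. Signs turned by −log10 p at the region near ZNFX1 (6.30) and at 1 on chromosome 8 (9.19), whose value by signal per bp was 3.86. By signal per bp they also turned at the regions in or near SCRT1 (-33.6), LTBP2 (-6.17), TEX26 (-6.28), C1QTNF3 (-14.1), NBPF4 (-18.2), CRYBB2 (14.7) and ZNFX1 (10.8). The genes that turned were CIART (-48.0), TTLL7 (20.4), RBM38 (32.2), PLEKHA2 (4.15), MSI1 (35.7), TJP3 (1.25), TPSD1 (2.53), CHD7 (12.5), HELLS (4.79), and COL4A1 and COL4A2 (13.4). The cause was not tested. No paired analysis was possible because each condition had 1 list that pools both replicate numbers; for the same reason no library could be left out.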
